A study of Mus musculus with 40 samples.

Results

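The genes described here are 9 lymphocyte genes, found by symbol in the deposited count tables of mouse aorta and kidney. The B cell genes are Ms4a1, Cd79a, Cd79b and Cd22, and the T cell genes are Cd5, Cd2, Lck, Cd8a and Cd4. All 9 are in both tables, among 55335 gene rows for aorta and 55382 for kidney. They were chosen by name as cell type markers, with earlier results of these data known.

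The study asked whether EGFR, the receptor of epidermal growth factor, in endothelial cells contributes to the vascular and renal effects of obesity. In each tissue, RNA of 5 mice was sequenced for each of 4 groups, so 40 libraries were measured. EC-EGFR-KO mice carried floxed Egfr alleles with exon 1 between the loxP sites and the Tek-cre transgene (B6.Cg-Tg(Tek-cre)1Ywa/J), and EC-EGFR-WT mice carried Tek-cre without the loxP sites, both on a C57BL/6 background. Each genotype was split into SFD mice, fed 10% of energy as fat, and HFD mice, fed 60%, for 18 weeks from an age of 6 weeks. Tek-cre is not inducible, and it can also recombine in blood-forming cells, which give rise to lymphocytes. Aortas had been freed of adjacent fat and connective tissue.

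B and T lymphocytes are the cells of adaptive immunity. A B cell reads its antigen receptor, a membrane antibody, through the signalling chains Cd79a and Cd79b. A T cell reads its receptor together with the co-receptors Cd4 or Cd8a, to which the kinase Lck is bound. Both kinds circulate in blood and gather in lymph nodes, and small numbers lie in the adventitia of arteries and in the renal interstitium. Developing T cells, thymocytes, cut and join their receptor genes with the recombinase Rag1 and add bases with Dntt, and mature T cells have switched both off. In whole tissue, more cells of a type and more RNA per cell cannot be told apart.

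Total counts on genes ranged from 17520161 to 36452741 in aortas and from 19643033 to 48833447 in kidneys, and 1 count was worth between 0.0281 and 0.0585 FPM in aortas and between 0.0211 and 0.0517 FPM in kidneys. FPM is the count per 1000000 counts of the library size after TMM scaling. The vascular smooth muscle genes Acta2 and Myh11 marked the aortas (15800 to 29200 and 7680 to 11400 FPM), and the tubule genes Slc34a1 and Umod the kidneys (4480 to 6090 and 1660 to 2850 FPM). Slc34a1 reached at most 0.109 FPM in aortas, and Umod was listed at 0 there. Chromosomes 9, X, Y and the mitochondrial genome hold 0 in every library, so the CD3 genes Cd3d, Cd3e and Cd3g, Thy1 and Cxcr5 were not analysed here. Alas2 and Xcr1 were also at 0 in every library of both tissues, and these zeros are not read as absence of expression. The aortas R-1 (WT SFD) and R-12 (KO SFD) differed by less than the sampling noise, with a mean chi-square per gene of 0.374 against 10.4 for the next closest of 190 pairs. The kidneys a1 (KO HFD) and a12 (WT HFD) did so too, with 0.380 against 9.11. Each of these pairs crosses 2 groups, and values without them are given for the comparison of KO with WT.

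The positions of the 9 genes are given on GRCm38 (GENCODE M21 annotation). Ms4a1, the surface antigen CD20, is on chromosome 19, 11249675 to 11266241, and Cd5, a damper of T cell receptor signals, lies on the same chromosome at 10717116 to 10739002. Cd79a (24897381 to 24902197) and the inhibitory B cell lectin Cd22 (30865402 to 30880342) are on chromosome 7, and Cd79b is on chromosome 11, 106311341 to 106314762. The adhesion molecule Cd2 is on chromosome 3, 101275899 to 101287939, and Lck on chromosome 4, 129548344 to 129573641. Cd8a (71373427 to 71379173) and Cd4 (124864692 to 124888221) are on chromosome 6. Exons of 2 members overlap those of another gene. For Cd22 it is Gm29439 on the opposite strand, over 479 of 5042 exon bases, and for Lck Mir8119 on the same strand, over 25 of 2929.

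Promoter windows of 300 bases, from 250 before to 50 after a transcription start, were found in the RefSeq table (GRCm38.p6) for 5 of the 9 members, Cd79a, Cd22, Cd5, Cd8a and Lck, with 2 windows for Lck. Ms4a1, Cd79b, Cd2 and Cd4 had none there. Those of Cd79a and Cd22 are shown because these B cell genes were high in the same aortas, that of Cd8a as a T cell gene with another order of aortas, and both of Lck because one of its promoters, the proximal, is known for use in thymocytes and the distal for use in mature T cells. Counts per gene do not separate the 2. Capitals mark matches on either strand to 5 motifs, which are bound by factors of lymphocyte gene control. They are the octamer ATGCAAAT, the EBF core CCCNNGGG, the RUNX motif TGTGGT, the ETS motif AGGAAG and the E-box CAGCTG, and no 2 matches overlapped in these windows.
Cd79a, chr7:24897247-24897546, plus strand: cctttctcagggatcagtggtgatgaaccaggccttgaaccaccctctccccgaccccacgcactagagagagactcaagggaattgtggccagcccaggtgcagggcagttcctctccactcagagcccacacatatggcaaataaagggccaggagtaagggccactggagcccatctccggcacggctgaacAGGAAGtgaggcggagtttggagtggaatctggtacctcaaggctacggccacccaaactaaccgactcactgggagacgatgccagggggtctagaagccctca
Cd22, chr7:30878979-30879278, minus strand: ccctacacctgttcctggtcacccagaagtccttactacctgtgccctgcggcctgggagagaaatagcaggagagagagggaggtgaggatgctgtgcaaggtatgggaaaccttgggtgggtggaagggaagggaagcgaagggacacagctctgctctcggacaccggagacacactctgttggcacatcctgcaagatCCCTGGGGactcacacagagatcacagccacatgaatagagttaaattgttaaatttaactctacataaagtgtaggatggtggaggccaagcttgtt
Cd8a, chr6:71373177-71373476, plus strand: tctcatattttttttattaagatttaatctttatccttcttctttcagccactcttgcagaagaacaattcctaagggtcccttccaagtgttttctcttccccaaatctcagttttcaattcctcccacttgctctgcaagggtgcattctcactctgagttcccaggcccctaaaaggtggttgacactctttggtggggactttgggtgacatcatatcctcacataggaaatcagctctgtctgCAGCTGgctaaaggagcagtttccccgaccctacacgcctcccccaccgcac
Lck, distal, chr4:129573592-129573891, minus strand: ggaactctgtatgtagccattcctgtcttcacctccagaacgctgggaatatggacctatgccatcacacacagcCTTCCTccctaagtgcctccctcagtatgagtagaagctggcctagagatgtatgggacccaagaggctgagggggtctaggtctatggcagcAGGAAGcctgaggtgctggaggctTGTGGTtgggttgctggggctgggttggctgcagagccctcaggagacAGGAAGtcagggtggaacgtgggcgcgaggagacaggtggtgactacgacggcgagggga
Lck, proximal, chr4:129558323-129558622, minus strand: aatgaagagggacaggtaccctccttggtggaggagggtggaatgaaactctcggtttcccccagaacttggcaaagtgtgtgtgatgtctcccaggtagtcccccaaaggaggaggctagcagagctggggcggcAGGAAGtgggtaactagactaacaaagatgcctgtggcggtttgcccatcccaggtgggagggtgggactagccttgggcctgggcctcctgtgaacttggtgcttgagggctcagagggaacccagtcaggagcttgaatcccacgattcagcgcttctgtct

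The ETS letters were in the windows of Cd79a (1 match), of distal Lck (3), of proximal Lck (1) and of Cd5 (2, not printed), and 35.4% of the 32851 mouse promoter windows hold them. The EBF core was in the window of Cd22, against 13.7% of all windows, the RUNX motif in that of distal Lck, against 16.8%, and the E-box in that of Cd8a, against 16.3%. The octamer, held by 1.74% of all windows, was in none of the 6. A match is no evidence of binding, and no match says only that these letters are not in the window.

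In most aortas the B cell genes were near the limit of detection. In 2 of the 20, both from EC-EGFR-KO mice, they were high, R-11 (SFD) and R-16 (HFD). Cd79a had 0.563, 0.483, 0.899, 0.334 and 0.658 FPM in the WT SFD aortas R-1 to R-5, and 3.98, 2.20, 1.63, 0.950 and 0.351 FPM in the WT HFD aortas R-6 to R-10. It had 17.5 FPM in R-11 and 0.506, 0.750, 0.447 and 0.423 FPM in the other KO SFD aortas R-12 to R-15, and 35.0 FPM in R-16 and 0.633, 0.333, 0.533 and 0.296 FPM in the other KO HFD aortas R-17 to R-20. Without R-11 and R-16, the KO values lay within the range of the WT values apart from the lowest, R-20 and R-18. R-16 was 63.9-fold and R-11 31.9-fold above the median of the remaining 18 aortas.

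Ms4a1 had 17.8 FPM (325 counts) in R-16 and 7.58 FPM (163 counts) in R-11. In the other 18 aortas it ranged from 0 to 0.779 FPM with a median of 0.249 FPM, where 0 counts in R-18 allow up to 0.125 FPM by counting error alone. Cd79b showed the same 2 libraries, with 26.1 and 16.5 FPM against 0.0585 to 3.47 FPM elsewhere. Cd22 had 11.3 and 7.06 FPM against 0 to 0.957 FPM. For all 4 B cell genes R-16 was the highest of 20 and R-11 the next. R-16 exceeded R-11 by a factor of 2.35 for Ms4a1, 2.00 for Cd79a, 1.60 for Cd22 and 1.58 for Cd79b. Next after these came R-6, a WT HFD aorta, for Cd79a, Cd79b and Cd22, and R-17 for Ms4a1.

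**Figure D1:**
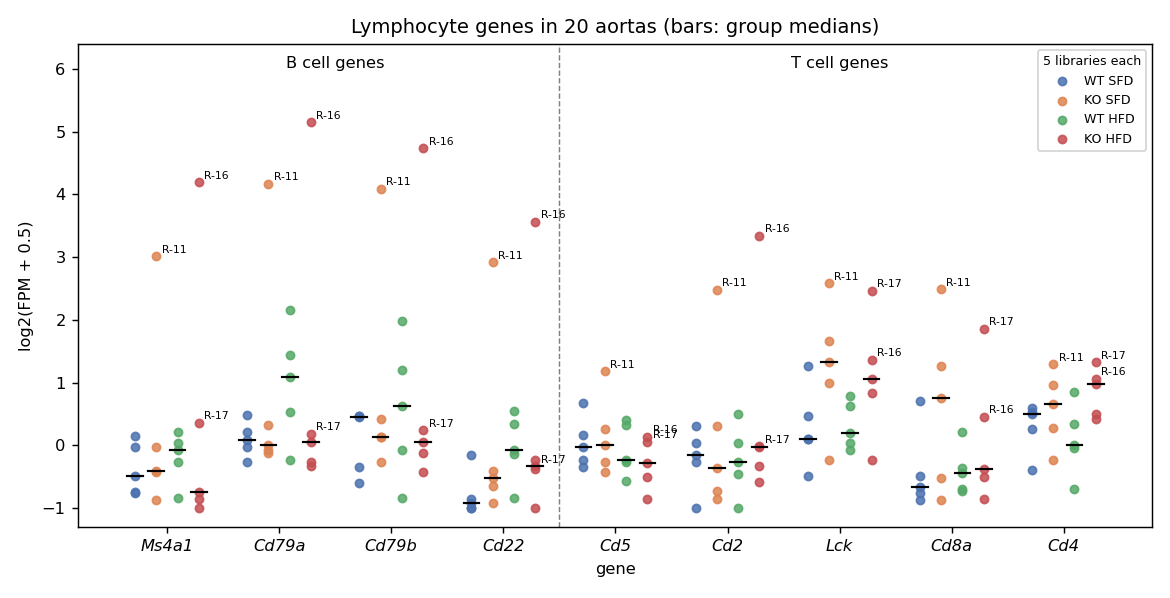
Levels of the 9 genes in the 20 aortas as log2(FPM + 0.5), with 1 point per library, colours for the 4 groups of 5 and bars at the group medians. R-11 and R-16 stand above all other aortas for the 4 B cell genes and for Cd2, while R-11 and R-17 are the highest for Lck and Cd8a.

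The T cell genes followed another order. Cd8a, the co-receptor of cytotoxic T cells, had 1.13, 0.132, 0.211, 0.0477 and 0.0878 FPM in R-1 to R-5, 0.101, 0.660, 0.117, 0.279 and 0.234 FPM in R-6 to R-10, 5.11, 1.18, 1.90, 0.199 and 0.0470 FPM in R-11 to R-15, and 0.874, 3.12, 0.208, 0.267 and 0.0494 FPM in R-16 to R-20. R-11 was highest, followed by R-17, R-13, R-12 and R-1, and R-16 came after these. The groups overlapped in their low libraries.

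Lck had 1.91, 0.571, 0.211, 0.572 and 0.878 FPM in R-1 to R-5 and 0.453, 1.04, 0.525, 1.23 and 0.644 FPM in R-6 to R-10. In the KO aortas it had 5.48, 2.00, 2.65, 0.348 and 1.5 FPM in R-11 to R-15 and 2.08, 5.02, 1.58, 1.28 and 0.346 FPM in R-16 to R-20. The 3 highest libraries were those of Cd8a, and the lowest KO library of each diet lay among the WT libraries.

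Cd4, the co-receptor of helper T cells, spread least of the T cell genes relative to its median, from 0.117 to 2.00 FPM, with R-17, R-11 and R-16 highest. Cd5 ranged from 0.0494 to 1.77 FPM, highest in R-11. Its value in R-16, 0.601 FPM, was exceeded in 6 aortas. Cd2 behaved like the B cell genes. It had 9.62 FPM in R-16 and 5.07 FPM in R-11, against 0 to 0.906 FPM in the other 18, and the ratio of R-16 to R-11 was 1.90 for Cd2, against 0.810 for Cd4, 0.380 for Lck, 0.340 for Cd5 and 0.171 for Cd8a. In the mouse, Cd2 is also a B cell surface molecule, so its place in the T cell group follows the list and not these data.

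The balance of the groups was taken per library as the mean log2(FPM + 0.5) of the 4 B cell genes minus that of the 5 T cell genes. It ranged from -1.02 in R-17 to 3.13 in R-16 in aortas, with a median of -0.13, and 8 of 20 aortas were above 0. R-11, high in both groups of genes, had 1.54, and R-6 had 1.05. R-13, R-12, R-1 and R-18 were at -0.77, -0.73, -0.71 and -0.69. By group, the difference was -0.24 ± 0.35 in WT SFD, -0.03 ± 0.97 in KO SFD, 0.40 ± 0.49 in WT HFD and 0.19 ± 1.68 in KO HFD (SD, n = 5 each), so the spread within the KO groups exceeded the distance between any 2 group means. On the same scale, the mean of the B cell genes spanned 5.10 between the extreme aortas and that of the T cell genes 2.51.

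**Figure D2:**
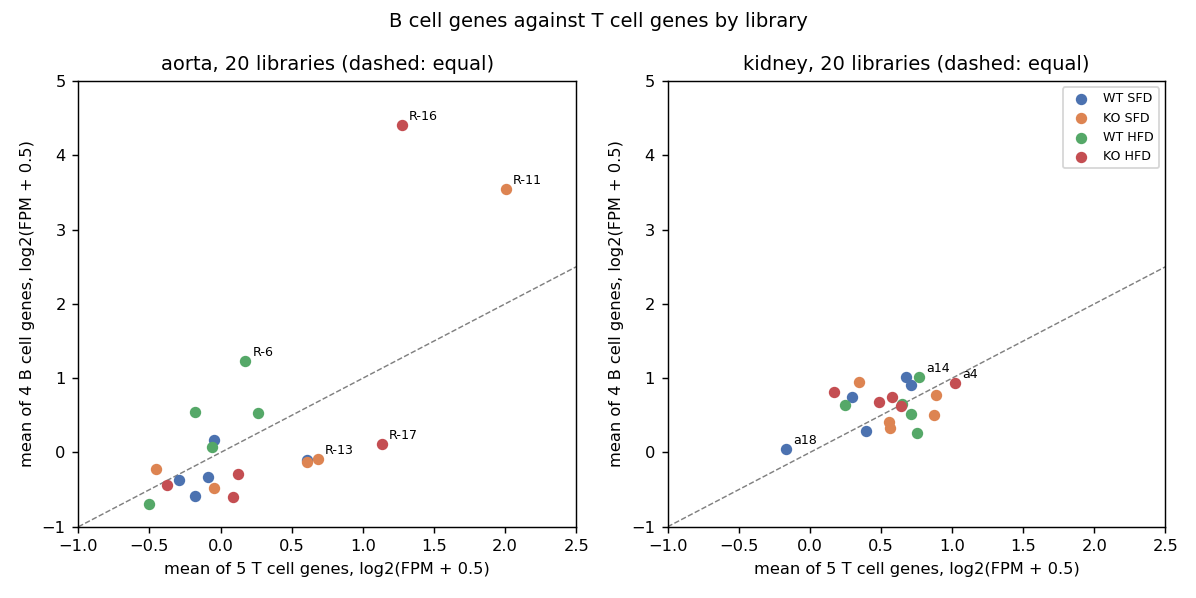
Mean log2(FPM + 0.5) of the 4 B cell genes against that of the 5 T cell genes, with 1 point per library and aortas on the left, kidneys on the right; the dashed line marks equal means. R-16 and R-11 lie far above the line and R-17 lies below it, while the 20 kidneys stay within 0.64 of the line in the vertical direction.

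Other B cell genes marked the same 2 aortas. Of 20 further B cell genes, 18 had counts, and 17 of these were higher in R-16 than in every aorta but R-11, and 17 were higher in R-11 than in every aorta but R-16. Immunoglobulin heavy chain Ighm had 113 FPM in R-16 and 60.6 FPM in R-11 against at most 20.1 FPM elsewhere, light chain Igkc 56.0 and 26.8 FPM against 5.14 FPM, and the tetraspanin Cd37 58.6 and 19.9 FPM against 5.89 FPM. Plasma cell genes differed among themselves. Their summed level was 62.2 FPM in R-16 and 61.1 FPM in R-11, within the 45.4 to 80.7 FPM of the other 18, of which most is Sdc1 (42.5 to 76.4 FPM), a gene of epithelial cells too. The joining chain of secreted antibodies, Jchain, had 0.883 FPM in R-11 and 0.601 FPM in R-16 against at most 0.476 FPM elsewhere. R-16 was also above the other 18 aortas for the transcription factor gene Irf4, with 6.01 FPM against at most 3.42 FPM, and for Mzb1, with 0.546 FPM against at most 0.353 FPM, while R-11 had 2.88 and 0.0465 FPM of these. For Derl3, Tnfrsf17 and Prdm1, both were within the range of the others.

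Further T cell genes were led mostly by R-11, and cytotoxic genes by R-11 alone. Of 20 further T cell genes with counts, R-11 was the highest of all aortas for 14, R-16 for 3 and R-17 for 3, and their summed level was 57.5 FPM in R-11, 24.9 FPM in R-17 and 19.6 FPM in R-16, against a median of 8.56 FPM over the 20 aortas. The T cell receptor chain gene Trbc1 and the signalling adaptor gene Lat had 7.76 and 7.81 FPM in R-11 but 1.15 and 2.19 FPM in R-16. All 9 measured genes of natural killer and cytotoxic cells were highest in R-11, where Gzma, Gzmb and Nkg7, genes of cytotoxic granules, had 33.0, 11.9 and 8.51 FPM. In the 18 aortas other than R-11 and R-16 they reached at most 0.880, 0.376 and 0.495 FPM, and in R-16 they had 0.492, 0.109 and 1.04 FPM.

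Aortas that were high in Cd8a and Lck but not in B cell genes had counts of Rag1 and Dntt, and so had R-18, with 0.208 FPM of Cd8a. Both genes are from a list of 10 thymus genes, of which 4 are known from thymocytes, and were singled out after their values were seen. Which cells these counts came from was not tested. Rag1 had 4.14 FPM (85 counts) in R-17, 1.21 FPM (43 counts) in R-1, 1.15 FPM (41 counts) in R-12, 1.2 FPM (24 counts) in R-13 and 0.375 FPM (9 counts) in R-18. In the other 15 aortas it had 0 to 2 counts, with 1 count in R-11 and 0 in R-16. Dntt had 2.19, 0.900, 0.900, 0.700 and 0.416 FPM in the same 5 aortas, 5 counts in R-5 and at most 1 count in each of the others, with 0 in R-11 and R-16. The other 2 of these 4 genes were near the limit of detection. Rag2, the partner of Rag1, had 0.0844, 0.113, 0.200, 0.0487 and 0 FPM in R-1, R-12, R-13, R-17 and R-18, the 0.200 FPM being the highest of all aortas. Ptcra, the surrogate receptor chain of thymocytes, was at 0 in R-1, R-12, R-13 and R-18 and at 0.244 FPM in R-17, with 0.160 FPM in R-19 and 0.101 FPM in R-6. The T cell factor Tcf7 was highest in R-17 (6.19 FPM), above R-11 (4.93 FPM). Of the rest of the list, Foxn1 was listed at 0 in every aorta, and Aire, Psmb11 and Prss16 reached at most 0.151, 0.107 and 0.146 FPM. Ccl25 had 1.28 to 4.48 FPM and Cd1d1 0.293 to 4.15 FPM. In kidneys, Rag1 had at most 1 count and Dntt at most 5. Since R-1 and R-12 differed by less than the sampling noise, these 5 libraries stand for 4 distinct ones, of which R-13, R-17 and R-18 are KO.

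**Figure D3:**
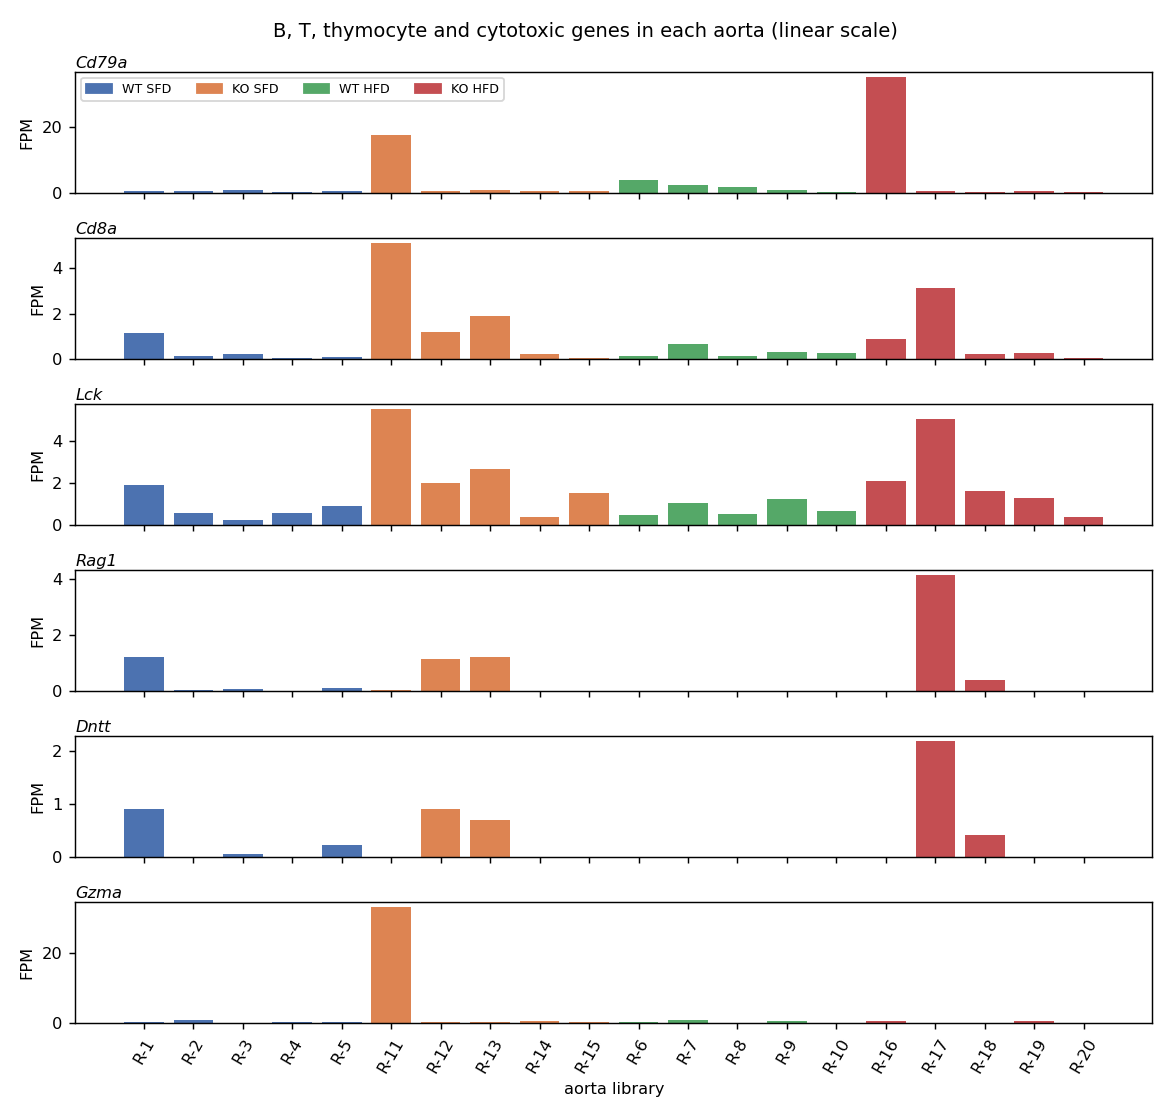
FPM of Cd79a, Cd8a, Lck, Rag1, Dntt and Gzma in each of the 20 aortas on linear axes from 0, ordered and coloured by group. Cd79a is high in R-11 and R-16, Gzma in R-11 alone, and Rag1 and Dntt in R-1, R-12, R-13 and R-17, where Cd8a and Lck are also raised.

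Red blood cell genes were high in R-11 and R-16, and platelet genes in R-11. The part of other blood cells in these values was not tested. The red blood cell list, of whose 8 genes 6 had counts and Alas2 was listed at 0, summed to 80100 FPM in R-11 and 61100 FPM in R-16, against 418 to 44500 FPM in the other 18. All 6 were highest in R-11, with hemoglobin Hba-a1 at 27600 FPM. By group, the sum ranged over 2110 to 30500 FPM in WT SFD, 4390 to 80100 FPM in KO SFD, 2340 to 44500 FPM in WT HFD and 418 to 61100 FPM in KO HFD. Platelet genes summed to 236 FPM in R-11 and 111 FPM in R-16, with 15.9 to 144 FPM elsewhere, and 4 of 5 were highest in R-11. R-16 was above the other 18 aortas for 1 of 5, Pf4, at 70.0 FPM against 90.7 FPM in R-11. For Ppbp, Itga2b and Gp9, R-16 had 21.4, 16.1 and 3.28 FPM, below R-7 with 50.7, 30.1 and 8.47 FPM. Among the other aortas, red cell genes were highest in R-7 (44500 FPM), where Cd79a had 2.20 FPM.

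Some but not all myeloid genes were high in R-16. The macrophage and dendritic cell list, with counts for 9 of 10 genes and Xcr1 listed at 0, summed to 2160 FPM in R-16 against 259 to 570 FPM in all other aortas, R-11 included at 458 FPM. Most of that sum is lysozyme Lyz2, with 1870 FPM in R-16 against at most 307 FPM elsewhere. R-16 was the highest for 5 of the 9 genes, among them Cd14 at 57.4 FPM and Adgre1 at 55 FPM. The macrophage receptor Mrc1 was low in R-16, at 29.1 FPM in a range of 26.9 to 93.1 FPM, and Csf1r, at 90.6 FPM, lay below the highest, 101 FPM in R-5. By group, the sum ranged over 282 to 497 FPM in WT SFD, 402 to 570 FPM in KO SFD, 259 to 341 FPM in WT HFD and 366 to 2160 FPM in KO HFD. All 11 genes shared by leukocytes, such as Laptm5 (180 FPM) and Rac2 (38.9 FPM), were higher in R-16 than in the 18 aortas other than R-11. The list of lymph node and lymphoid stroma genes, with counts for 8 of 10, summed to 106 FPM in R-11 and 97.7 FPM in R-16 against 59.6 to 93.9 FPM elsewhere. Most of it is Ltbr, a receptor gene of many stromal cells, with 75.5 and 71.0 FPM against 51.7 to 70.9 FPM. The chemokine Ccl19 had 20.5 FPM in R-11, the highest of 20, and 11.3 FPM in R-16, with 1.61 to 19.8 FPM elsewhere. The B cell chemokine Cxcl13 had 12.4 FPM in R-16, 2.00 FPM in R-11 and at most 1.65 FPM elsewhere, while Ccl21a, a chemokine of lymph node stroma, was highest in R-2 (13.2 FPM), and Chst4, an enzyme of lymph node venules, was listed at 0 in every aorta. By group, the sum ranged over 67 to 91.5 FPM in WT SFD, 59.6 to 106 FPM in KO SFD, 64.5 to 93.9 FPM in WT HFD and 62.2 to 97.7 FPM in KO HFD. White adipocyte genes summed to 59.5 FPM in R-11 and 28.2 FPM in R-16, within the 5.85 to 341 FPM of the others.

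KO was compared with WT to ask whether the loss of endothelial EGFR goes with a change in lymphocyte genes. Egfr itself, the targeted gene, was read from whole tissue and had 38.3, 39.2, 36.4, 54.2 and 29.9 FPM in the WT SFD aortas, 36.4, 37.7, 37.2, 39.7 and 51.7 FPM in WT HFD, 37.6, 38.3, 46.1, 50 and 48.1 FPM in KO SFD and 36.9, 41.4, 43.6, 45.7 and 54.7 FPM in KO HFD. The groups overlapped. KO against WT averaged over the diets was 0.14 on the log2 scale in aortas (standard error 0.10, edgeR adjusted p = 0.729) and -0.01 in kidneys (0.12, adjusted p = 0.990), so whole tissue RNA did not check the labels. The study itself checked the excision by genomic PCR on DNA of lung or aorta, and Egfr mRNA by quantitative PCR in lung. In aortas, 8 of the 9 members passed the filter on low counts, all but Cd22, and 0 of 8 were called at an adjusted p under 0.05 in any of 7 comparisons (edgeR's quasi-likelihood test with Benjamini-Hochberg adjustment over 15122 genes). Of all genes tested, 0% were called for KO against WT under SFD and 0% under HFD, 0.0198% for KO against WT averaged over the diets, 0.0132% for HFD against SFD in WT, 0% in KO, 0.0529% averaged over the genotypes, and 0% for the interaction. An unadjusted p under 0.05 in edgeR was reached by 2 of 8 members for KO against WT under SFD, by 2 under HFD, by 7 averaged over the diets and by 0 in the other 4 comparisons, and the DESeq2 Wald test also called 0. Of all genes, 2.28%, 5.85% and 8.78% had an unadjusted p under 0.05 in these first 3 comparisons. DESeq2 gave no p for 5 members, Ms4a1, Cd79a, Cd79b, Cd22 and Cd2, in the aortas.

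In the average over the diets, KO exceeded WT on the log2 scale by 2.82 (standard error 1.02) for Ms4a1, 2.36 (0.93) for Cd79a, 2.29 (0.93) for Cd79b, 2.01 (0.85) for Cd2, 1.97 (0.76) for Cd8a, 1.44 (0.47) for Lck and 0.80 (0.35) for Cd4, while Cd5 was at -0.11 (0.41). The adjusted p-values were 0.421 to 0.958 in edgeR. The median over the 8 was 1.99, against 0.005 over all genes tested. Without R-1 and R-12, Cd8a was at 2.78 and Lck at 1.77 (edgeR adjusted p = 0.162 and 0.134), and the other 6 at -0.04 to 3.07. Cd22, which passed the filter there, was also at 3.07 (edgeR adjusted p = 0.286). Without R-11 and R-16 the B cell genes pointed the other way, with -0.48 for Ms4a1, -1.06 for Cd79a and -0.78 for Cd79b (edgeR adjusted p = 0.657, 0.228 and 0.397), and so did Cd2 at -0.27. Lck, Cd8a and Cd4 stayed above 0 at 1.19, 1.5 and 0.64 (adjusted p = 0.251, 0.312 and 0.360). When R-1, R-12, R-13 and R-17, the aortas with most Rag1 counts, were left out as well, Lck was at 0.61 and Cd4 at 0.19, Cd8a did not pass the filter, and the smallest adjusted p of the members was 0.282.

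**Figure D4:**
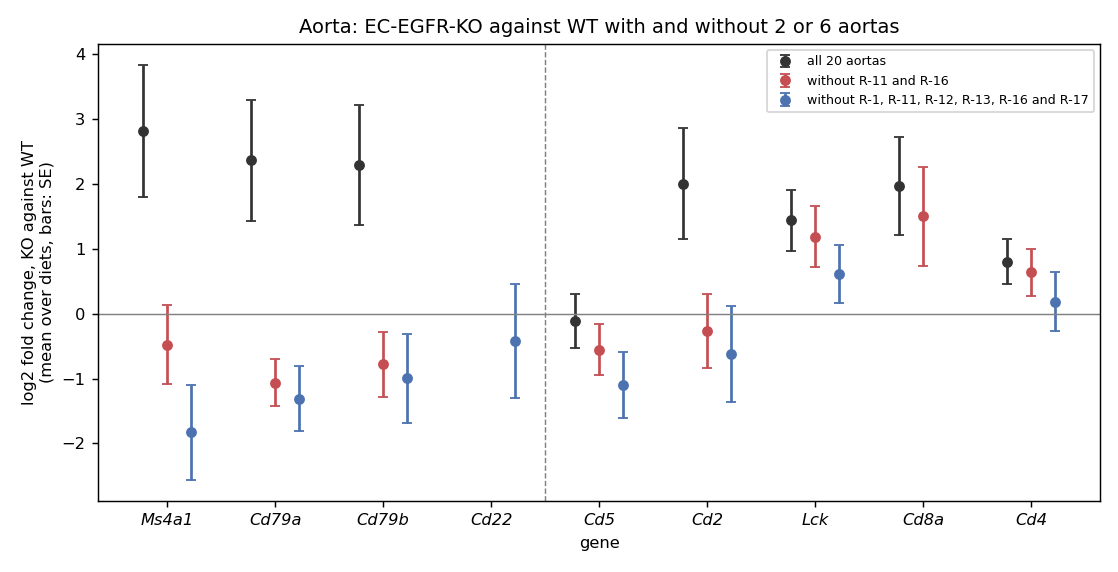
Log2 fold changes of KO against WT averaged over the diets in aortas, with standard errors, from all 20 aortas, without R-11 and R-16, and without these and the 4 aortas with most Rag1 counts. Ms4a1, Cd79a, Cd79b and Cd2 change sign once R-11 and R-16 are left out, and a gene that does not pass the filter has no point.

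Single libraries set much of the size of these differences for the B cell genes tested and Cd2. With 1 library left out at a time, Lck stayed at 1.12 to 1.74, Cd4 at 0.65 to 1.03 and Cd8a at 1.28 to 2.72. Without R-16 alone, Cd79a was at 0.35, and without R-11 alone at 0.93. The number of members with an unadjusted p under 0.05 in edgeR fell from 7 to 1 without R-11 and to 3 without R-16. It was 8 without R-1 and R-12, where Cd22 passed the filter and was among them. Under SFD, KO against WT ranged from 0.31 to 2.73 over the 8 members with standard errors of 0.49 to 1.44, and under HFD from -0.53 to 3.18 with standard errors of 0.50 to 1.45. The interaction of KO and HFD ranged from -0.84 to 0.85, with standard errors up to 2.03.

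HFD was compared with SFD to ask whether obesity goes with a change in these genes. In WT aortas the diets overlapped for each B cell gene. Cd79a had 0.334 to 0.899 FPM under SFD and 0.351 to 3.98 FPM under HFD, and Cd79b 0.159 to 0.878 and 0.0585 to 3.47 FPM. Ms4a1 had 0.0878 to 0.614 FPM under SFD and 0.0585 to 0.655 FPM under HFD, and Cd22 0 to 0.395 and 0.0585 to 0.957 FPM. The log2 fold changes of the B cell genes for HFD against SFD in WT were 0.40 to 1.64 for the 3 tested, with standard errors of 1.34 to 1.54, and those of the T cell genes -0.31 to -0.03. The fit shares 1 estimate of the spread over the 4 groups, so the KO aortas R-11 and R-16 enter these standard errors. In KO the 8 members ranged from -1.05 to 1.11. The adjusted p was at least 0.917 for each member in the 3 comparisons of the diets.

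Among the other lymphocyte genes of the aortas, 0 were called in any comparison. For KO against WT averaged over the diets, 11 of 11 further B cell genes tested were above 0 (median 1.55, 8 with an unadjusted p under 0.05), 10 of 10 further T cell genes (median 1.18, 6), and 11 of 11 leukocyte genes (median 0.99, 10), with the smallest adjusted p at 0.343. They were read from the same libraries as the members. Other cell types were read in the same comparison, and their part in it was not tested. White adipocyte genes were below 0 in 6 of 6 (median -1.03, 5 with an unadjusted p under 0.05), and macrophage and dendritic cell genes above 0 in 7 of 8 (median 0.64, 6), with 0 called. Without R-11 and R-16, the medians of the further B and T cell genes were -0.22 and 0.84.

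The genes with profiles most like those of the members were sought by the root mean square distance between centred log2(FPM + 0.5) profiles, over 13203 genes with at least 1 FPM on average in aortas. Among the nearest to the mean of the B cell genes over the 20 aortas were Siglecg at 0.325, the B cell transcription factor Pax5 at 0.331 and the immunoglobulin heavy chain Ighd at 0.406, where the profile itself had a root mean square of 1.31. Nearest to the T cell genes were Trbc2 at 0.299, E2f2 at 0.348, Nup210 at 0.376, Tcf7 at 0.416 and Rhof at 0.419, against a profile of 0.628. Points of these profiles share libraries and depth, and the distances are a description.

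In kidneys the same genes spread less than in aortas. Every member was detected in each of the 20 kidneys, with at least 3 counts, and none had a library that stood as far above the rest as R-11 or R-16. Cd79a ranged from 0.394 to 2.28 FPM, Cd79b from 0.842 to 2.22 FPM, Ms4a1 from 0.131 to 1.37 FPM and Cd22 from 0.433 to 1.37 FPM. Lck ranged from 0.918 to 3.85 FPM, Cd8a from 0.656 to 2.63 FPM, Cd2 from 0.285 to 1.16 FPM, Cd4 from 0.175 to 1.15 FPM and Cd5 from 0.120 to 1.05 FPM. The highest kidney was 1.29 to 2.22 times the median of its gene, against 2.20 to 61.2 times in aortas. It was 2.64 (Cd79b) to 10.4 (Ms4a1) times the lowest kidney.

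The lowest kidney was a18 (WT SFD) for 5 of the 9, Ms4a1, Cd79a, Lck, Cd8a and Cd4, and its summed levels of the leukocyte, plasma cell and further B and T cell lists were also the lowest of the 20. The balance of B and T cell genes ran from -0.49 to 0.64 in kidneys, with an SD of 0.31 against 0.97 in aortas, and was 0.22 ± 0.21 in WT SFD, -0.05 ± 0.38 in KO SFD, -0.01 ± 0.35 in WT HFD and 0.18 ± 0.28 in KO HFD (SD, n = 5 each). Nearest to the B cell genes over the kidneys were Gtf2e1, Fam49b, Eif1a, Tmtc2 and Calu at 0.155 to 0.175, against a profile of 0.266, and to the T cell genes Gimap3, Cdc42ep1, Adamts10, Rasip1 and Cables1 at 0.160 to 0.187, against 0.274, so no B cell gene of the lists was among them. These values come from tables normalized separately and are set side by side without a test between tissues.

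**Figure D5:**
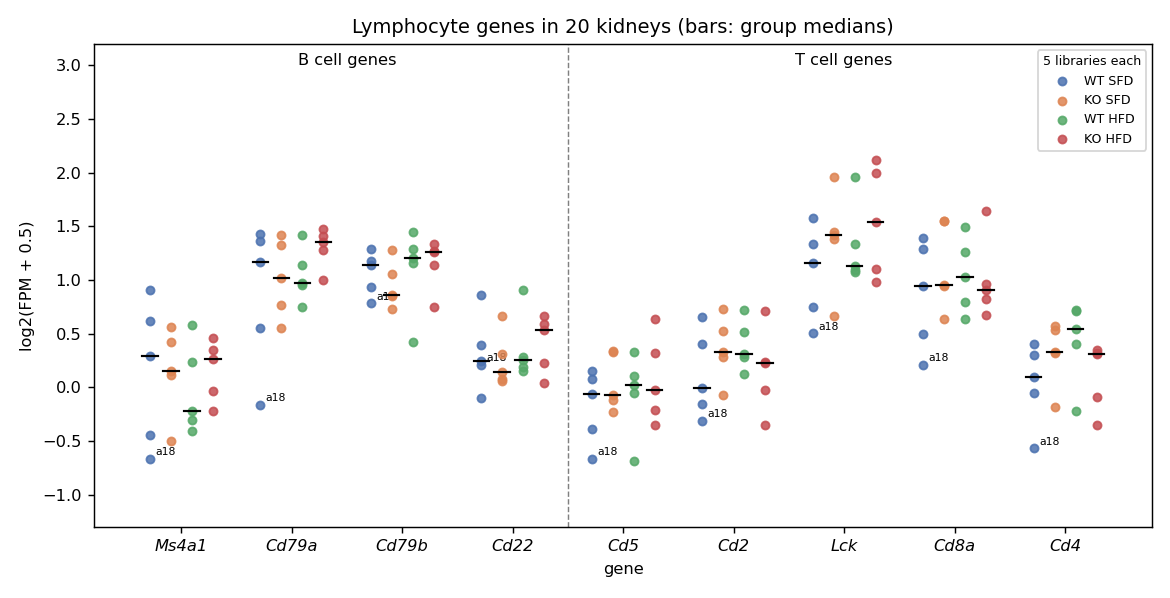
Levels of the 9 genes in the 20 kidneys as log2(FPM + 0.5), with 1 point per library, colours for the 4 groups of 5 and bars at the group medians. The groups overlap for every gene, and a18 is the lowest library for Ms4a1, Cd79a, Lck, Cd8a and Cd4.

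No member passed a test between groups in kidneys. Of the 9 members, all tested, 0 were called in any of the 7 comparisons by edgeR or by DESeq2, and 0 had an unadjusted p under 0.05 by either. Of all 15943 genes tested by edgeR, 0% were called for KO against WT under SFD, 0% under HFD and 0% averaged over the diets, 6.71% for HFD against SFD in WT, 6.34% in KO and 16.4% averaged over the genotypes, and 0% for the interaction. An unadjusted p under 0.05 in edgeR was reached by 2.67%, 3.42%, 4.82%, 19.4%, 19.5%, 29.9% and 1.79% of all genes, in the same order. For KO against WT averaged over the diets the log2 fold changes ran from -0.06 to 0.36 with standard errors of 0.16 to 0.37. Without a1 and a12 they ran from -0.11 for Cd4 to 0.42 for Lck (edgeR adjusted p = 0.902 and 0.561). For HFD against SFD averaged over the genotypes, with all kidneys, they ran from -0.23 to 0.28 with standard errors of 0.16 to 0.37. Cd79a, for example, had 1.47 ± 0.77 FPM in WT SFD, 1.57 ± 0.52 FPM in KO SFD, 1.59 ± 0.37 FPM in WT HFD and 1.98 ± 0.30 FPM in KO HFD (SD, n = 5 each), and Cd8a 1.41 ± 0.64, 1.75 ± 0.63, 1.61 ± 0.51 and 1.56 ± 0.61 FPM in the same order.

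Of the wider lymphocyte lists, 3 genes rose in kidneys under HFD averaged over the genotypes. Cd72, a B cell receptor-associated lectin that macrophages also carry, was higher by 0.61 on the log2 scale (standard error 0.10, edgeR adjusted p = 2.7e-04), Bcl11b, a T cell transcription factor, by 0.64 (0.12, adjusted p = 8.7e-04), and Derl3, of the endoplasmic reticulum of secretory cells, by 0.72 (0.24, adjusted p = 0.0463). They were 1 of 16 further B cell genes tested, 1 of 16 further T cell genes and 1 of 6 plasma cell genes, against 16.4% of all genes. Bcl11b had 5.13 to 16.7 FPM in kidneys, while the T cell receptor gene Trbc2 had 0.918 to 2.69 FPM. In WT alone, Cd72 and Bcl11b rose (adjusted p = 0.00285 and 0.00984), and in KO they had 0.47 and 0.53 (adjusted p = 0.0609 and 0.0736), a difference between genotypes with an edgeR adjusted p of 1 for both. The 3 calls of these lists averaged over the genotypes also numbered 3 without a1 and a12. Of the macrophage and dendritic cell genes, 4 of 9 rose and 1 fell in the same comparison, among them Cd68 by 0.68 (adjusted p = 0.0017), and their part in the rise of Cd72 was not tested. Antibody genes were abundant in kidneys, with 42.0 to 250 FPM of Igkc and 8.88 to 83.8 FPM of Jchain.

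Levels can be compared between genes only per length, here as FPM per kilobase of merged exons. In aortas the medians of this level were 0.448 for Cd79b, 0.410 for Cd79a, 0.388 for Lck, 0.225 for Cd4, 0.209 for Cd2, 0.0839 for Cd5, 0.0613 for Cd8a, 0.0512 for Cd22 and 0.0469 for Ms4a1. In kidneys they were 1.2 for Cd79b, 1.18 for Cd79a, 0.693 for Lck, 0.412 for Cd2, 0.394 for Cd8a, 0.185 for Cd4, 0.137 for Cd22, 0.104 for Ms4a1 and 0.0962 for Cd5. Neighbours in either order overlapped in their ranges over the 20 libraries. In R-16, Cd79a and Cd79b reached 24.0 and 18.3 on this scale, above Lck at 0.709.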

How the data were processed

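RNA of 20 aortas and 20 kidneys (TRIzol, oligo(dT) selection, random hexamers, paired reads of 150 bases) was measured. The counts per gene, not normalized, are as deposited by the authors. Per the labels, reads were aligned to mm10 with HISAT2 2.1.0, while the study's methods name TopHat2, and counted with featureCounts; the strand setting is not given in the sources used here. Of the gene IDs, 55154 (aorta) and 55141 (kidney) matched GENCODE M21.

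Tests were run per tissue with edgeR 4.0.16 (R 4.3.3): TMM scaling, filterByExpr by group, robust quasi-likelihood fits over the 4 groups, and Benjamini-Hochberg adjustment over all genes tested. DESeq2 1.42.0 was an alternative, beside its size factors, no filter, no robust estimation, and fits without single libraries or sets of libraries. An adjusted p that DESeq2 did not give was left out. A mean log2 was taken of FPM + 0.5. A count of 0 was taken to allow up to 3 counts, for counting error only. On simulated KO against WT counts under SFD in aortas (14985 genes), the fit recovered 56.6% of genes changed by a log2 fold of 1. It recovered 85.9% of those changed by 2. In kidneys (15789 genes) the shares were 76.8% and 93.0%. The changed genes were drawn at random from all genes in the fit, so these shares do not give the detection rate for the members.

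The 9 genes and all lists were chosen with earlier results of these data known. The lists were printed as counts, and from each the 3 genes of highest mean, those called, and those in R-11 or R-16 above every other aorta (at most 4) were named, though not every gene this allows is given, and genes outside it, such as those of the thymus and plasma cell lists, were named after their values were seen. Leaving out the aortas with most Rag1 counts was chosen after seeing the data. Samples were taken by group from the labels. Some genes near the B cell profile are not reported here.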

Additional observations from a re-analysis of the deposited data

Results flagged for a closer look

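Of 72 groups of 5 libraries (9 genes, 4 groups, 2 tissues), 16 held a library that stood apart from the other 4 by Dixon's ratio. The level was 95%, tested at both ends, where chance gives about 1 in 20 for normally distributed values. The ratio was taken on FPM, which is skewed near the limit of detection, so that rate need not hold here. All 16 were the highest of their group. That some aortas are rich in lymphocyte genes was known before, so for R-11 and R-16 this describes and does not test. In aortas, 5 of these were R-11 among the KO SFD aortas, with 7.58 FPM for Ms4a1, 17.5 for Cd79a, 16.5 for Cd79b, 7.06 for Cd22 and 5.07 for Cd2. R-16 stood apart among the KO HFD aortas for the same 5 genes, with 17.8 FPM for Ms4a1, 35 for Cd79a, 26.1 for Cd79b, 11.3 for Cd22 and 9.62 for Cd2. The genes of a library share its RNA, so these are not separate events.

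For Cd8a, R-17 stood apart among the KO HFD aortas with 3.12 FPM and R-1 among the WT SFD aortas with 1.13 FPM. For Cd22, R-5 stood apart among the WT SFD aortas with 0.395 FPM. In kidneys, Cd22 was high in a14 (1.37 FPM) and Lck in a12 (3.39 FPM), both WT HFD, and Cd8a in a4 (2.63 FPM), a KO HFD kidney. Counts of a12 and of a1, a KO HFD kidney, agreed within sampling noise.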

How the results depend on the processing

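No member was called at an adjusted p under 0.05 under any alternative run, in 91 values over comparisons and settings and 200 without 1 library. For KO against WT averaged over the diets in aortas, the sign changed without R-11 and R-16 for Ms4a1 (-0.48), Cd79a (-1.06), Cd79b (-0.78) and Cd2 (-0.27), and without R-1, R-11, R-12, R-13, R-16 and R-17 for the same genes (-1.83, -1.32, -0.999 and -0.62); by construction, both leave out the 2 aortas with the highest values. Leaving out 1 library at a time moved Cd5 from -0.44 to 0.079 and crossed 0 in 3 of 20 refits, while the other 7 members kept their sign, with Ms4a1 at 0.83 to 3.01 and Cd8a at 1.28 to 2.72. In the same comparison, 55 values under the other settings kept their sign. In both tissues, 95 of 120 B minus T differences moved by less than 1 SD of the library's group under another pseudocount or without Cd5, Cd2 and Cd4. No paired analysis was possible because the groups share no replicate numbers. DESeq2 gave no adjusted p for 5 members in aortas. The median count of a member over the aortas was 4 to 21, so small differences between them were not detectable. Larger ones were not called either, such as 2.82 for Ms4a1 with a standard error of 1.02. Without R-11 and R-16 the standard error of Cd79a fell from 0.93 to 0.37, while that of Cd8a stayed at 0.76. The search for like profiles without R-11 and R-16 kept genes chosen by their mean over all 20 aortas, and its result is not used here.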
